A study of Apostichopus japonicus with 3 samples.

Results

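Transcripts named for enzymes, membrane proteins and the proton pump of the lysosome were followed in 3 messenger RNA libraries from the sea cucumber Apostichopus japonicus. The control library came from animals in natural light of about 100 lux. The dark library came from animals held for 2 h in a covered, fully dark tank, and the light library from animals given strong light, about 2000 lux, for 2 h. The tissue label and the protocol name the body wall and the source label names the intestine. Each condition has 1 library, and how many animals were pooled for it is not stated.

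Reads were counted on assembled transcripts called isotigs, and a single gene may be represented by more than 1 of them (as a splice form, an allele or a fragment). A member is an isotig whose first KEGG orthology name holds any of 10 terms: lysosomal, cathepsin, V-type H+-transporting ATPase, hexosaminidase, saposin, galactosidase, mannosidase, glucosylceramidase, Niemann-Pick or arylsulfatase. Of 21290 isotigs, 96 were members, under 42 names. By name they were sorted into 8 role groups: 7 membrane proteins, 17 cathepsins, 25 glycosidases and sulfatases, 9 sphingolipid activators and other hydrolases, 11 proteins of cholesterol transport, 11 isotigs of the V1 part of the proton pump, 8 of its V0 part and accessory subunit, and 8 enzymes of the endoplasmic reticulum and Golgi. The last group was matched by wording (mannosidase-like proteins, and the Golgi enzyme that tags lysosomal enzymes) and does not sit in the lysosome. Arylsulfatases I and J and Niemann-Pick C1-like protein 1 are also not known as lysosomal proteins. For 13 members the database hit behind the name had an E-value above 1e-10, and these names are uncertain. They include all 6 isotigs named lysosomal-associated membrane protein, all 3 of pump subunit G, 2 saposins, 1 beta-galactosidase and 1 arylsulfatase I/J.

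Lysosomes are acidic organelles in which hydrolases digest proteins, glycans and lipids delivered by endocytosis, phagocytosis and autophagy. The vacuolar proton pump (V-ATPase) keeps them acidic: its V1 part hydrolyses ATP in the cytosol and its V0 part carries protons across the membrane. Most soluble hydrolases reach the lysosome from the Golgi after receiving a mannose 6-phosphate tag in vertebrates, and heavily glycosylated membrane proteins line the inner face of the lysosomal membrane.

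The control, dark and light libraries held 1.57 M, 1.70 M and 1.64 M uniquely assigned reads. Reads were found for 95 of the 96 members in control, for 87 in the dark and for 93 in light. A mean of at least 1 RPKM (reads per kilobase of isotig and per M reads of the library) over the 3 libraries was reached by 88 members, called tested below, and by 18225 isotigs in all. The other 8 members had at most 5 reads in any library. The mean read number over the libraries had a median of 46.5 among tested members, and 28 of them reached 100. With 1 library per condition no test between conditions is possible. Where 3 read numbers follow each other they are in the order control, dark and light. Log2 ratios are of RPKM plus 0.5, and a member is counted when it is at least 2-fold apart. Folds come from reads per library total, with an exact 95% interval that covers counting error only, called the counting interval. Neither tells the spread between animals.

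The 3 conditions differed for these transcripts mainly in the dark. Members made up 0.801% of reads in control (95% Wilson interval 0.787 to 0.815), 0.526% in the dark (0.515 to 0.537) and 0.848% in light (0.834 to 0.862). Without isotig13012, the most abundant member by RPKM in light after cathepsin B, the shares were 0.778%, 0.521% and 0.789%. Ribosomal protein isotigs stood the other way, at 8.02%, 12.8% and 7.84%, and the median log2 ratio of all tested isotigs in dark vs control was -0.31. In these bulk libraries fewer cells of a type and less RNA per cell cannot be told apart.

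In dark vs control 30 of the 88 tested members lay below the 2-fold limit and 4 above it. The corresponding shares of all 18225 isotigs were 24.0% and 7.09%. Of the 6458 tested isotigs with a KEGG name, 29.7% were lower and 4.20% higher, against 34.1% and 4.55% of members. Members were thus lower about as often as other named isotigs. The median log2 ratio of members was -0.73, that of named isotigs -0.56. With size factors that bring the median of all isotigs near 0, 19 members were lower and 5 higher, where 16.6% and 11.8% of all isotigs were, and the member median was -0.43. The counting interval excluded 1 for 27 of the 30 lower and 2 of the 4 higher members, that is for most of the former. Across all tested isotigs such calls came to 14.1% lower and 2.57% higher, and across named ones to 21.1% and 1.73%.

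In light vs control 5 members lay above the 2-fold limit and 5 below it, or 5.68% each. Among all isotigs these shares were 7.77% and 7.22%, and of named isotigs 5.93% and 4.91%. The member median was 0.07, beside 0.00 for all isotigs and 0.06 for named ones. Counting error alone could not span 1 for 4 higher and 3 lower members, where all isotigs had 2.25% and 1.95% and named ones 2.43% and 1.53%. The members' counts after strong light were therefore near those of other named isotigs. Among the 28 members with at least 100 reads, 1 was higher in light (isotig13012) and 0 lower, where 0.658% and 0.988% of all isotigs of that depth were, and 0.747% of named ones each way. In the dark 6 of the 28 were lower and 0 higher, beside 14.7% and 2.06% of all isotigs of that depth and 20.8% and 1.16% of named ones.

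**Figure D1:**
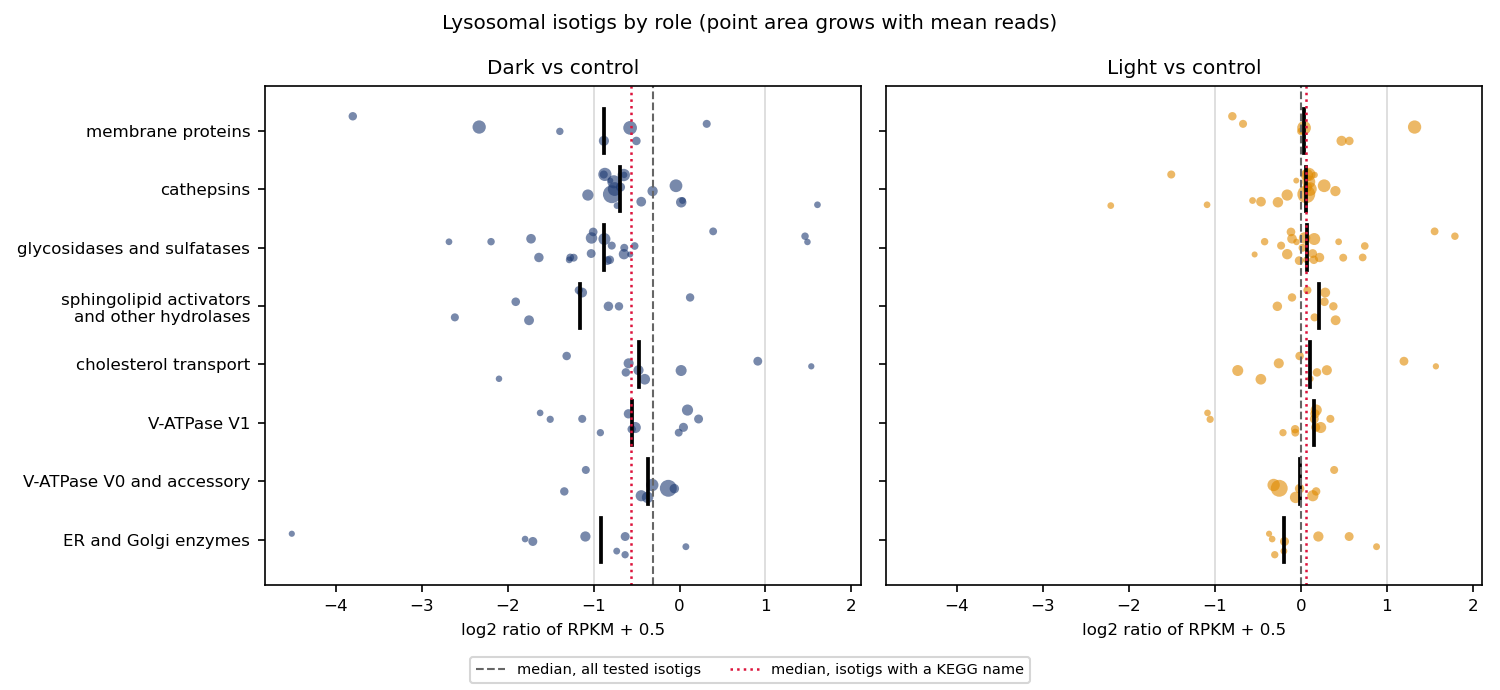
Log2 ratio of RPKM + 0.5 for each of the 88 tested members (points, area growing with mean reads), by role group, in dark vs control and light vs control; black bars are group medians, light grey lines mark 2-fold, and the dashed and dotted lines are the medians of all tested and of KEGG-named isotigs. In the dark the group with the saposins has the lowest median and the V0 group lies nearest to the median of all isotigs, while in light the group medians lie between -0.19 and 0.22.

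The role groups differed in how low they stood in the dark. The sphingolipid activators and other hydrolases had a median log2 ratio of -1.15, with 5 of 8 tested members at least 2-fold lower. The glycosidases and sulfatases had -0.87 and 10 of 21, the membrane proteins -0.88 and 3 of 7, and the endoplasmic reticulum and Golgi enzymes -0.91 and 4 of 8. The cathepsins had -0.69 with 1 of 17. The V1 group had -0.56 and 3 of 11, cholesterol transport -0.48 and 2 of 9, and the V0 group -0.37 and 2 of 7. Named isotigs as a whole had a median of -0.56, and these last groups did not fall below it. With size factors the medians of these groups ran from -0.84 for the sphingolipid activators to -0.06 for V0, all still below 0. The counts of lower members then went from 10 to 5 for the glycosidases and sulfatases, from 5 to 3 for the sphingolipid activators, from 4 to 3 for the endoplasmic reticulum and Golgi enzymes, from 1 to 0 for the cathepsins, from 3 to 2 for V1 and from 2 to 1 for V0. They stayed at 3 for the membrane proteins and 2 for cholesterol transport. The share of all isotigs that was lower is 24.0%, or 16.6% with size factors. That of named isotigs is 29.7% with library totals, and it was not computed with size factors. Differences between groups were not tested.

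Reads were also summed over all isotigs of each name, which removes shifts between isotigs of the same gene. In the dark 29 of the 42 sums had a counting interval wholly below control, or 69.0%, and 1 had one wholly above. Across the 3300 KEGG orthologies tested, 42.5% were wholly lower and 7.0% wholly higher. More reads make such an interval narrower, and these orthologies were not matched to the members in depth. At the 2-fold limit on summed RPKM, 12 of 41 tested sums were lower and 1 higher, or 29.3% and 2.44%, while 25.9% and 1.91% of all orthologies were. With size factors, applied to summed reads, 6 in place of 12 were 2-fold lower. In light 5 sums were wholly above control and 3 wholly below, beside 10.3% and 5.18% of all orthologies, and 2 were 2-fold higher and 0 lower on summed RPKM, beside 3.12% and 2.33%. With size factors 33 sums stayed below control in the dark and 9 above, where the library totals gave 39 and 3.

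**Figure D2:**
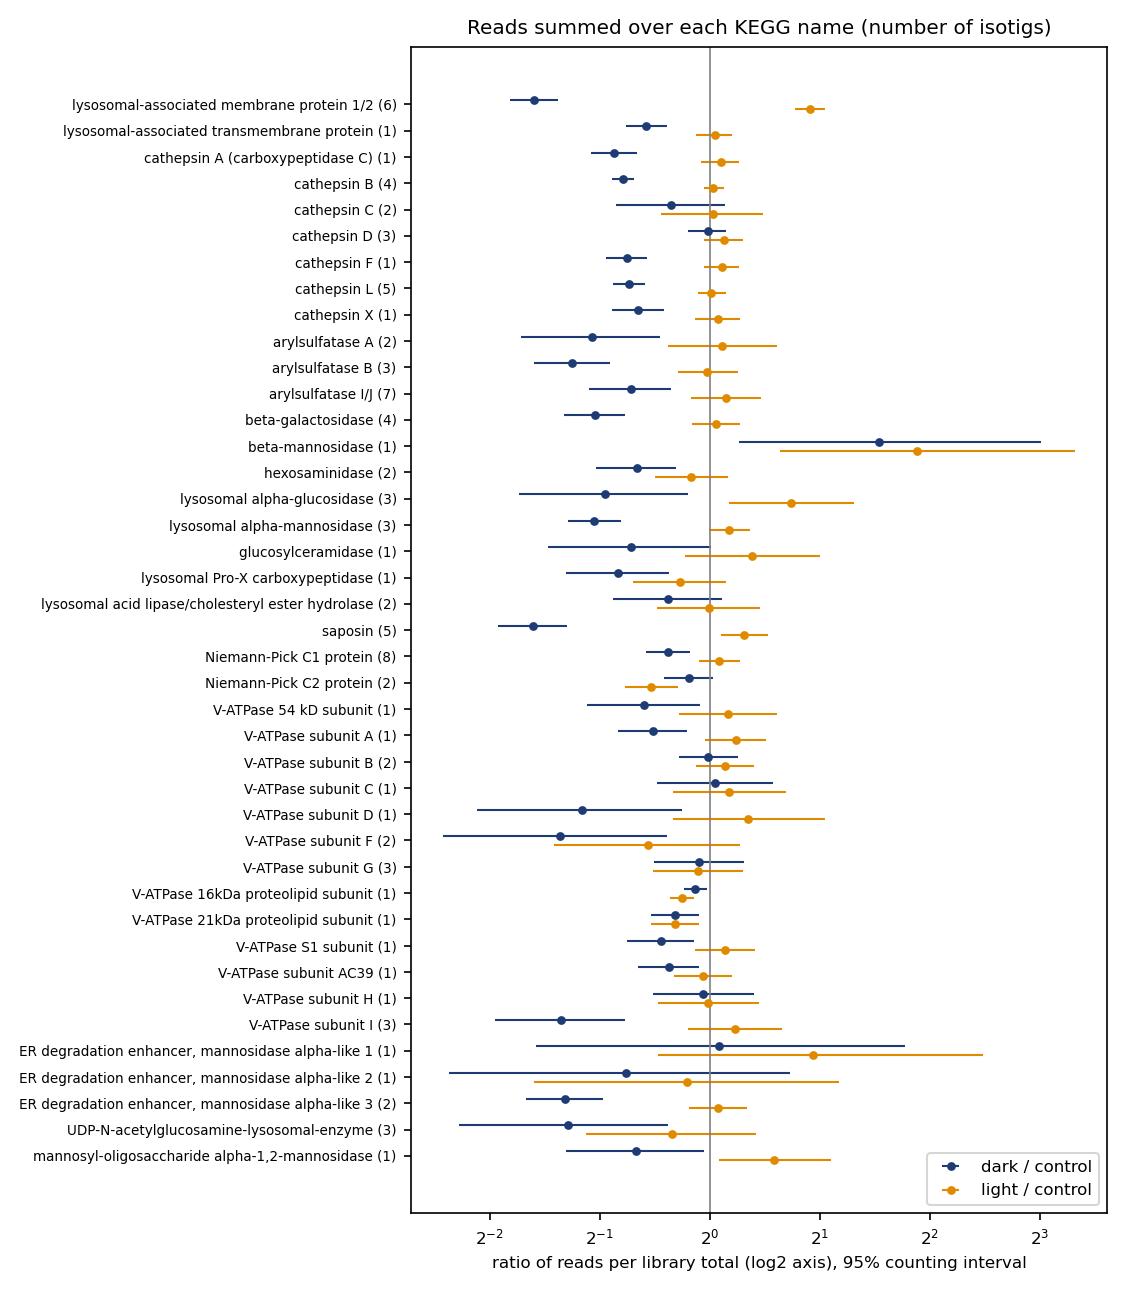
Ratio of reads per library total to control, summed over the isotigs of each name (number of isotigs in brackets), for dark (blue) and light (orange), with 95% counting intervals on a log2 axis; Niemann-Pick C1-like protein 1, with 2 reads in all, is left out. Lysosomal-associated membrane protein 1/2 and saposin stand on opposite sides of 1 in dark and light, cathepsin D and several pump subunits stay near 1, and beta-mannosidase is above 1 in both.

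Among the membrane proteins, those named lysosomal-associated membrane protein 1/2 (LAMP), the main glycoproteins of the lysosomal membrane, differed most. Summed over isotigs, their reads were 659 in control, 235 in the dark and 1295 in light. The sum was 3.03-fold lower in the dark (counting interval 2.61 to 3.53) and 1.88-fold higher in light (1.71 to 2.06). In control and light most of these reads belong to isotig13012, a short isotig of 435 bases with 369, 79 and 968 reads. It was covered over 99.31%, 98.85% and 98.62% of its length, so its reads were spread along it in all 3 libraries. Its second KEGG hit is CD164 antigen, another mucin-like membrane protein.

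It was 5.05-fold lower in the dark (3.95 to 6.53) and 2.5-fold higher in light (2.22 to 2.83). Light exceeded dark 12.7-fold (10.1 to 16.1). The other 5 LAMP isotigs are numbered consecutively, isotig02728 to isotig02732, with lengths of 1226 to 1322 bases. Together they had 290, 156 and 327 reads, 2.01-fold lower in the dark (1.65 to 2.46) and 1.08-fold higher in light (0.916 to 1.27). The higher LAMP sum in light therefore came from isotig13012, whereas the lower sum in the dark held for both sets.

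Within the 5, isotig02728 had 120, 70 and 175 reads and was 1.39-fold higher in light (1.10 to 1.77). Isotig02732 had 77, 5 and 46 reads, 16.7-fold lower in the dark (6.84 to 52.7). Isotig02731 had 31, 42 and 20 reads, at 1.25 times control in the dark (0.769 to 2.06) and 0.616 times in light (0.333 to 1.12), both within counting error. Its share of the reads of the 5 isotigs was 10.7% in control (7.38 to 14.8), 26.9% in the dark (20.1 to 34.6) and 6.12% in light (3.78 to 9.29). The share of isotig02732 was 26.6% (21.6 to 32.0), 3.21% (1.05 to 7.32) and 14.1% (10.5 to 18.3). Isotig02730 had 21, 8 and 22 reads and isotig02729 had 41, 31 and 64. Uniquely assigned reads covered at most 28.67% of any of these 5 isotigs, so their RPKM rests on a part of each sequence.

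The lysosomal-associated transmembrane protein (isotig13251), named for a family of small proteins of late endosomes and lysosomes, had 585, 424 and 629 reads. It was 1.49-fold lower in the dark (1.31 to 1.69) and within its counting error in light.

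**Figure D3:**
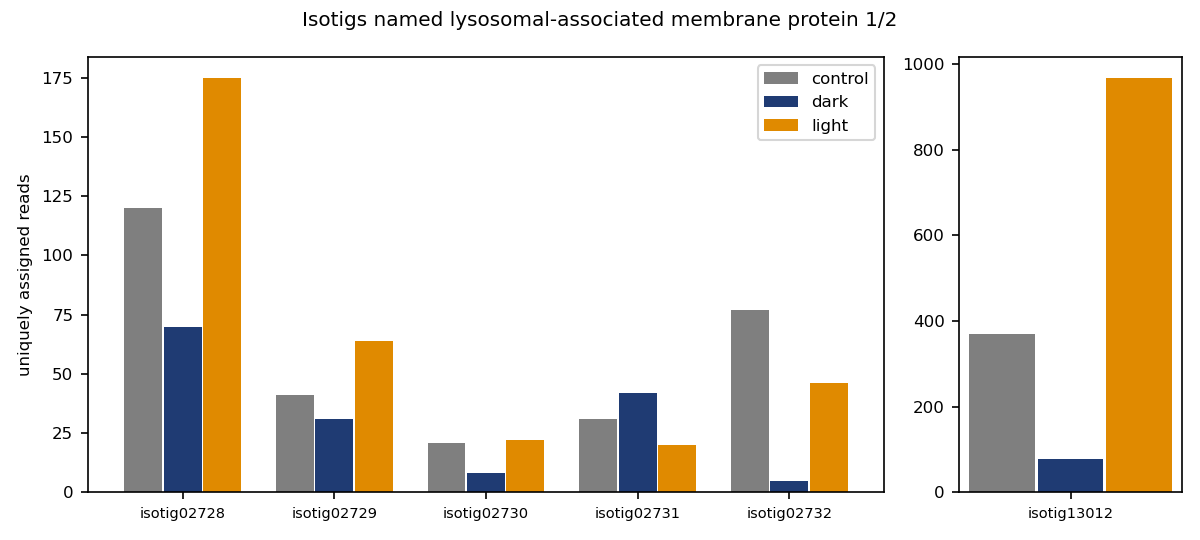
Uniquely assigned reads of the 6 isotigs named lysosomal-associated membrane protein 1/2 in control (grey), dark (blue) and light (orange), with a separate axis for isotig13012; 1 library per bar, not scaled to library totals. Isotig13012 has 369, 79 and 968 reads, and isotig02731 is the only 1 of the 6 with its highest bar in the dark.

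The cathepsins are lysosomal proteases, most of them of the cysteine class. Cathepsin B was the most abundant member at 1796 RPKM in control, 1040 in the dark and 1876 in light for its main isotig (isotig21461), with 1957, 1226 and 2142 reads. This isotig was 1.73-fold lower in the dark (1.61 to 1.86) and 1.04-fold higher in light (0.982 to 1.11). The level in the dark stood apart from the other libraries, which lay close together.

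By summed reads, cathepsins L, F, A and X showed the same order of libraries. On summed RPKM cathepsin L was slightly lower in light than in control, at 554 and 569. The main cathepsin L isotig (isotig16967) had 481, 306 and 537 reads and was 1.70-fold lower in the dark (1.47 to 1.97). Cathepsin F (isotig16172) had 609, 390 and 686 reads, 1.69-fold lower (1.48 to 1.92). Cathepsin A (isotig13722), a serine carboxypeptidase that also protects lysosomal glycosidases, had 511, 302 and 571 reads, 1.83-fold lower (1.58 to 2.12). Cathepsin X (isotig16295), a carboxypeptidase, had 360, 248 and 396 reads, 1.57-fold lower (1.33 to 1.85). In light each of the 4 sums lay between 1.01 and 1.08 times control. With library totals these dark folds all exceeded that of the median isotig, whose log2 ratio was -0.31, and all stayed under the 2-fold limit. Named isotigs had a lower median, at -0.56, or -0.46 for those with a mean of at least 100 reads. The log2 ratios of the summed RPKM of cathepsins L, F, A and X were -0.70, -0.75, -0.87 and -0.65.

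Cathepsin D, the aspartic protease of the family, stood closer to control in the dark. Its 3 isotigs summed to 508 reads in control, 541 in the dark and 580 in light, 1.02-fold lower in the dark (0.898 to 1.15). With size factors it stood 1.23-fold above control. The largest isotig (isotig06280) had 354, 372 and 448 reads, and was 1.21-fold higher in light (1.05 to 1.39). Cathepsin D thus stood nearer to control in the dark than the sums of cathepsins B, L and F, a difference that was not tested. It is not shown to be a split by protease class. The cathepsin C sum was 1.28-fold lower in the dark (0.909 to 1.8), within its counting error. With size factors the cathepsin L isotigs ranged widely in the dark. The log2 ratios were 0.0003 for isotig13709, -0.13 for isotig24247, -0.41 for isotig08978, -0.45 for isotig16967 and -0.75 for isotig08977.

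Several smaller cathepsin isotigs moved apart from their family. A cathepsin B pair (isotig08773 and isotig08774) had 49, 28 and 17 reads and 13, 8 and 2 reads. They were lower in light, 3.02-fold (1.71 to 5.59) and 6.81-fold (1.54 to 62.1). Summed with the abundant isotig21461, cathepsin B was at 1.02 times control in light (0.961 to 1.09). Isotig22214, also named cathepsin B, had at most 2 reads in any library.

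The cathepsin L isotigs ranged in coverage. Isotig08977 had 257, 132 and 241 reads, 2.11-fold lower in the dark (1.70 to 2.62), but in control its reads covered 78 of 1579 bases. Isotig13709 had 121, 105 and 168 reads and was 1.33-fold higher in light (1.04 to 1.69), whereas isotig24247 had 116, 92 and 88 and stood at 0.724 times control (0.543 to 0.964). Cathepsin C, also called dipeptidyl peptidase 1, had 78, 66 and 83 reads over both isotigs. Of these, isotig07207 held 4, 17 and 1.

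**Figure D4:**
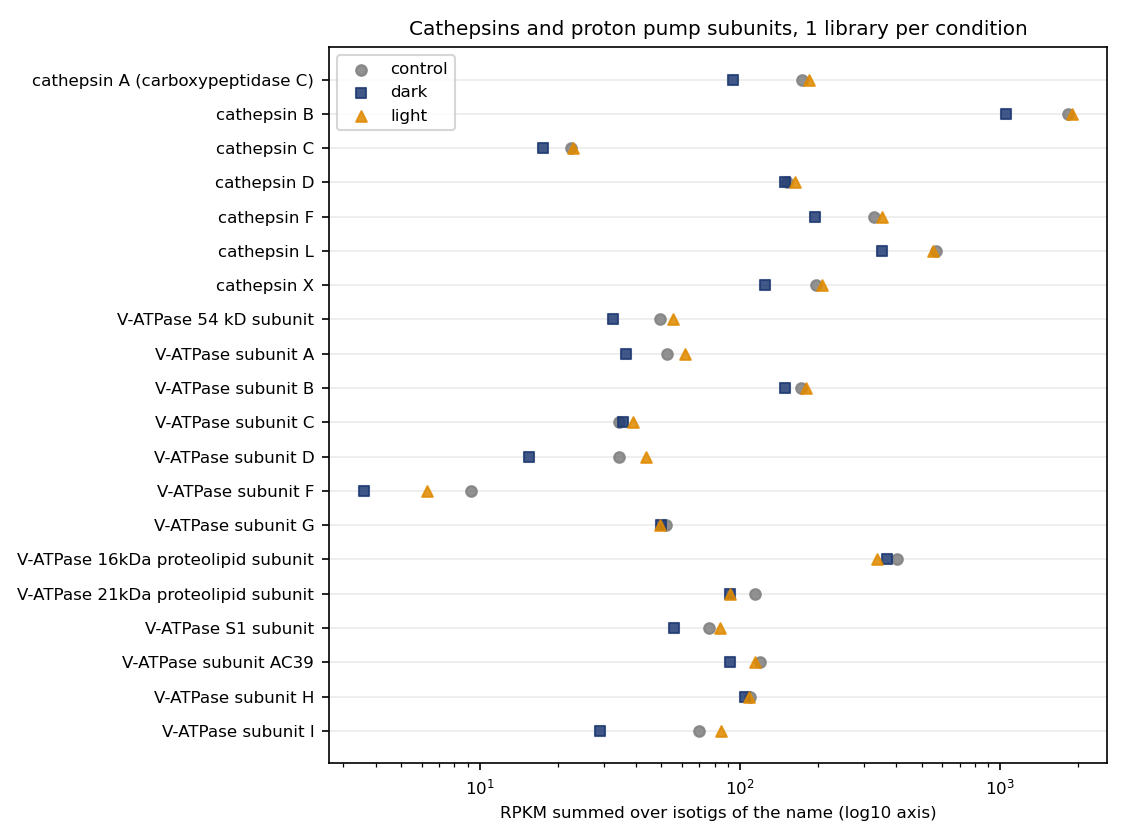
RPKM summed over the isotigs of each cathepsin and each V-ATPase subunit (log10 axis) in control (grey circles), dark (blue squares) and light (orange triangles), 1 library each. For cathepsins A, B, F, L and X the dark square lies to the left of the other symbols, while for cathepsin D and pump subunits C and H the 3 symbols lie close together.

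The glycosidases and sulfatases remove sugars and sulfate groups from glycoproteins, glycolipids and glycosaminoglycans. Lysosomal alpha-mannosidase, which trims mannose from N-glycans, had 421, 220 and 499 reads over 3 isotigs, 2.07-fold lower in the dark (1.75 to 2.45). Its isotig15735 had 316, 186 and 369 reads and isotig21540 had 96, 33 and 117. The latter was 3.15-fold lower in the dark (2.10 to 4.83). Isotig21024 had 9, 1 and 13 reads.

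Beta-galactosidase, which splits terminal galactose from gangliosides and keratan sulfate, had 322, 169 and 351 reads over 4 isotigs, 2.06-fold lower in the dark (1.71 to 2.50). The long isotig13623 carried most of them, with 263, 139 and 284 reads, 2.05-fold lower (1.66 to 2.53). Isotig23473 had 27, 6 and 21 reads, 4.87-fold lower (1.97 to 14.4), and isotig20961 had 29, 13 and 43, 2.41-fold lower (1.22 to 5.06). The weakly named isotig15792 had 3, 11 and 3 reads, a difference not detectable at this depth.

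Arylsulfatase B, which acts on dermatan and chondroitin sulfate, had 229, 104 and 236 reads, 2.38-fold lower in the dark (1.88 to 3.03). Its isotig19056 had 121, 39 and 118 reads, 3.36-fold lower (2.32 to 4.95). Arylsulfatase A, which desulfates sulfatide, had 65, 34 and 75 reads in its main isotig (isotig10181), 2.07-fold lower (1.35 to 3.23), and isotig10182 had 1 read, in control. For all these enzymes control and light stood near each other and dark below both.

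Hexosaminidase, which removes terminal hexosamines, had 159, 109 and 149 reads in isotig01002, and its second isotig (isotig01006) had 1 read, in control. The sum was 1.59-fold lower in the dark (1.24 to 2.04). This interval held the median of all isotigs, and with size factors isotig01002 had a dark log2 ratio of -0.33. Lysosomal alpha-glucosidase, the enzyme of lysosomal glycogen breakdown, had 43, 24 and 75 reads over 3 isotigs. It was 1.94-fold lower in the dark (1.15 to 3.34) and 1.67-fold higher in light (1.13 to 2.48), so the 3 libraries were spread out. The dark interval held the median of all isotigs. Isotig23076 had 23, 10 and 40 of these reads and was 2.49-fold lower in the dark (1.14 to 5.85). Isotig09789 had 19, 14 and 34, and isotig09790 had 1, 0 and 1.

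A different pattern was seen for beta-mannosidase, which removes the last mannose of N-glycan cores. Its single isotig (isotig20040) had 7, 22 and 27 reads. It was 2.91-fold higher in the dark (1.2 to 8.05) and 3.68-fold higher in light (1.56 to 10). Its reads covered 26.08% of the isotig in control and 71.63% and 71.88% in the other libraries. The control library, shared by both comparisons, was thus the low one.

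The 7 isotigs of arylsulfatases I/J summed to 157, 103 and 182 reads, 1.65-fold lower in the dark (1.28 to 2.13). Isotig24477 stood apart from them with 14, 20 and 44 reads, 3.0-fold higher in light (1.61 to 5.93). Isotig20055 had 60, 32 and 58 reads and was 2.03-fold lower in the dark (1.30 to 3.22). Isotig19278 had 1 read, in control.

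Saposins are small activator proteins cut from a common precursor, which present sphingolipids to lysosomal hydrolases. Their sum was 330, 117 and 429 reads, 3.05-fold lower in the dark (2.46 to 3.8) and 1.24-fold higher in light (1.07 to 1.44). Light exceeded dark 3.79-fold (3.08 to 4.69). All 4 tested saposin isotigs were at least 2-fold lower in the dark, and for 3 of them the whole counting interval lay beyond 2-fold. Isotig26532 had 116, 37 and 161 reads, 3.39-fold lower (2.32 to 5.05). Isotig28644 had 41, 7 and 48 reads, 6.33-fold lower (2.81 to 16.7).

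Isotig27507 had 116, 57 and 148 reads and isotig29323, a weakly named isotig of 260 bases, had 56, 16 and 71. They were 2.20-fold (1.59 to 3.08) and 3.79-fold lower (2.14 to 7.07). All 4 are 260 to 455 bases long, and they may be fragments of the same precursor transcript, so they are not independent of each other. The fifth saposin isotig (isotig03756) had at most 1 read.

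The other hydrolases of this group had fewer reads. Glucosylceramidase (isotig22385), the enzyme that saposin C activates, had 41, 27 and 56 reads and lay within its counting error in both comparisons with control. Lysosomal Pro-X carboxypeptidase (isotig17274) had 104, 63 and 90 reads, 1.79-fold lower in the dark (1.29 to 2.48). The acid lipase, which frees cholesterol from its esters, was split: isotig25663 had 38, 18 and 42 reads and isotig18617 had 39, 46 and 38. The former was 2.28-fold lower in the dark (1.27 to 4.25), the latter was not.

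Niemann-Pick C1 and C2 carry cholesterol out of the lysosome, C2 in the lumen and C1 in the membrane. The 2 isotigs of Niemann-Pick C2 had 209, 229 and 131 reads (isotig07296) and 136, 97 and 119 reads (isotig07297). Their sum of 345, 326 and 250 reads was 1.45-fold lower in light (1.22 to 1.71) and within its counting error in the dark. Niemann-Pick C2 was the member sum with the lowest ratio in light among those whose interval excluded 1. Isotig07296 alone was 1.67-fold lower in light (1.34 to 2.10).

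Niemann-Pick C1 had 444, 369 and 494 reads over 8 isotigs, 1.30-fold lower in the dark (1.13 to 1.5) and 1.04-fold lower with size factors. Isotig24207 had 116, 90 and 150 reads and isotig17678 had 54, 23 and 56, the latter 2.54-fold lower in the dark (1.53 to 4.33). The consecutively numbered isotig08907 and isotig08908 differed in how they split their reads. Isotig08907 had 189, 154 and 143 reads and isotig08908 had 31, 64 and 76, while their sum was 220, 218 and 219. The share of isotig08908 was 14.1% in control (9.78 to 19.4), 29.4% in the dark (23.4 to 35.9) and 34.7% in light (28.4 to 41.4). The interval in control did not overlap the other 2, which overlapped each other. Of the shallow isotigs of Niemann-Pick C1, isotig09645 had 7, 1 and 8 reads and isotig14554 had 1 read, in light. Niemann-Pick C1-like protein 1 (isotig15977), which takes up sterols in the vertebrate gut, had 1 read in control and 1 in light.

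Such shifts inside sets of consecutively numbered isotigs of the same name were looked for in all 12 sets, which hold 28 members. They were not looked for in sets outside the members, so how common they are among all isotigs is not known. Those described are examples. For cathepsin C isotig07207 held 5.13% of the pair's reads in control (1.41 to 12.6), 25.8% in the dark (15.8 to 38) and 1.2% in light (0.0305 to 6.53). For Niemann-Pick C2 isotig07297 held 39.4% (34.2 to 44.8), 29.8% (24.8 to 35.0) and 47.6% (41.3 to 54.0). For pump subunit G isotig06250 held 22.3% (14.7 to 31.6), 7.69% (3.38 to 14.6) and 11% (5.62 to 18.8), although the 3 subunit G isotigs summed to 103, 104 and 100 reads. In cathepsin D the smaller isotig06266 held 5.84%, 5.92% and 4.55%. A different make-up of animals, alleles or splice forms in a library and an effect of the condition cannot be told apart here.

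**Figure D5:**
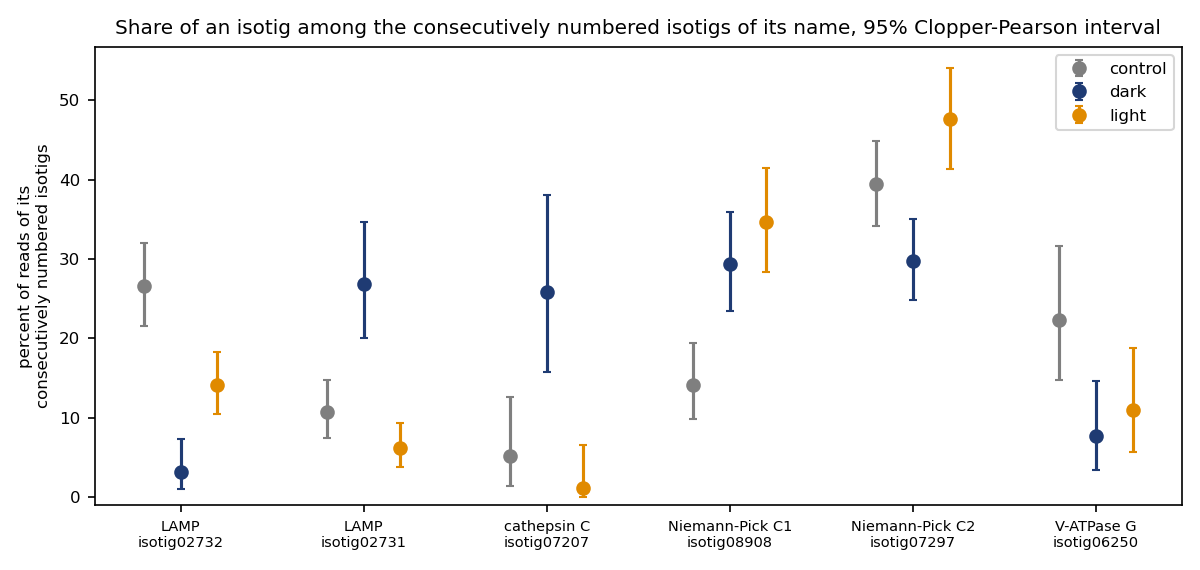
Percent of the reads of a set of consecutively numbered isotigs of the same name that fell on the isotig given, in control (grey), dark (blue) and light (orange), with 95% Clopper-Pearson intervals. For isotig08908 of Niemann-Pick C1 the control share of 14.1% lies below dark and light, and for isotig07207 of cathepsin C and isotig02731 of LAMP the dark share lies above the other 2.

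In the dark the proton pump differed less from control in its share of reads than the members as a whole. Its 19 isotigs took 0.203% of reads in control (0.196 to 0.210), 0.171% in the dark (0.165 to 0.178) and 0.189% in light (0.183 to 0.196). The dark interval lay below that of control. In light the pump share was below control, while that of all members was above it, at 0.848% beside 0.801%. The 16kDa proteolipid alone held 1465, 1447 and 1289 of the 3189, 2909 and 3112 pump reads. The 18 tested pump members had median log2 ratios of -0.48 in the dark and 0.06 in light. In the V1 part, the catalytic subunit A (isotig13273) had 199, 150 and 245 reads, 1.43-fold lower in the dark (1.15 to 1.79). Subunit B, its partner in the ATP-hydrolysing ring, had 182, 210 and 216 reads in isotig15074 and 45, 33 and 45 in isotig28879. The sum of B was 1.01-fold lower in the dark (0.839 to 1.22). With size factors B stood 1.23-fold above control and A 1.15-fold below.

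The other V1 subunits divided in the same way. Subunit C (isotig16613) had 60, 67 and 71 reads. The regulatory 54 kD subunit (isotig17270) had 80, 57 and 94 reads, 1.52-fold lower in the dark (1.07 to 2.17). Subunit D (isotig23042), of the central rotor, had 33, 16 and 44 reads, 2.23-fold lower (1.19 to 4.34). Both intervals held the median of all isotigs, and with size factors the log2 ratios were -0.28 and -0.82. Subunit F, also of the rotor, had 31, 13 and 22 reads over 2 isotigs, 2.58-fold lower (1.31 to 5.37), and its isotig07227 had 12, 3 and 5 reads. In subunit G, of the outer stalk, isotig06250 had 23, 8 and 11 reads and was 3.11-fold lower in the dark (1.34 to 8.04) and 2.19-fold lower in light (1.03 to 4.98), against the steady sum given above.

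In the V0 part, the 16kDa proteolipid (isotig13323), which forms the proton-carrying ring, was the most abundant pump transcript at 402, 367 and 338 RPKM. Its reads were 1465, 1447 and 1289, 1.19-fold lower in light (1.10 to 1.28) and 1.09-fold lower in the dark (1.02 to 1.18). With size factors it stood 1.14-fold above control in the dark, so its direction there depends on the scaling. The 21kDa proteolipid (isotig13473), of the same ring, had 376, 326 and 316 reads and was 1.25-fold lower (1.07 to 1.45) both in light and in the dark. With size factors its dark value was near control.

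Subunit AC39 (isotig15523), at the foot of the central stalk, had 242, 202 and 243 reads, 1.30-fold lower in the dark (1.07 to 1.57). The accessory S1 subunit (isotig13988) had 207, 164 and 239 reads, 1.37-fold lower (1.11 to 1.69). For AC39 and S1 these intervals held the median of all isotigs, and with size factors the log2 ratios were -0.06 and -0.13. The isotig named subunit H (isotig26149) had 81, 84 and 84 reads. Subunit I, the large membrane subunit, stood out with 85, 36 and 104 reads over 3 isotigs, 2.55-fold lower in the dark (1.71 to 3.88). Its isotig06144 had 48, 20 and 57 reads isotig23947 had 32, 16 and 44, and isotig06142 had 5, 0 and 3.

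The mitochondrial ATP synthase, a related rotary enzyme that makes ATP, was on the other side in the dark. Its 24 tested isotigs had a median log2 ratio of 0.50 in dark vs control and 0.12 in light vs control. In the dark 5 of the 24 (20.8%) were at least 2-fold higher and 2 (8.33%) lower. Of all tested isotigs 7.09% were higher and 24.0% lower, and of named ones 4.20% and 29.7%. Only 4 of the 5 higher isotigs, and 0 of the 2 lower ones, differed from control beyond counting error.

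Among the enzymes outside the lysosome, the 2 isotigs of the mannosidase-like protein EDEM3, which marks misfolded glycoproteins for disposal, had 144, 72 and 174 reads (isotig13601) and 84, 27 and 77 reads (isotig15083). They were 2.16-fold (1.62 to 2.91) and 3.36-fold lower in the dark (2.16 to 5.40). The Golgi enzyme that starts the mannose 6-phosphate tag had 34, 15 and 28 reads over 3 isotigs, 2.45-fold lower in the dark (1.30 to 4.84). Of these, isotig08715 had 10, 2 and 8 reads, isotig19523 had 19, 13 and 16, and isotig29112 had 5, 0 and 4. A count of 0 in the dark library allows up to 1.77 reads per M reads. The Golgi alpha-1,2-mannosidase (isotig13091) had 56, 38 and 88 reads, 1.59-fold lower in the dark (1.04 to 2.47) and 1.5-fold higher in light (1.06 to 2.14). Its dark interval held the median of all isotigs, and with size factors its dark log2 ratio was -0.33.

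A second list held other lysosomal and lysosome-sorting genes matched by name, 61 isotigs of which 52 were tested. Some matches were not lysosomal, among them endosialin, mannose-6-phosphate isomerase, dihydroceramidase and tripeptidyl-peptidase II. In the dark 13 of the 52, or 25%, were at least 2-fold lower and 0 higher, near the 24.0% of all isotigs and below the 29.7% of named ones that were lower. The median was -0.62 in the dark, and in light 1 was lower and 1 higher, with a median of 0.02. Some sorting receptors were among the lower ones. Sortilin had 125, 34 and 146 reads over 2 isotigs, 3.98-fold lower in the dark (2.70 to 5.99). The insulin-like growth factor 2 receptor, which in mammals carries mannose 6-phosphate tagged enzymes, had 180, 75 and 205 reads, 2.60-fold lower (1.97 to 3.45). Lysosome membrane protein 2, the carrier of glucosylceramidase, had 155, 76 and 190 reads, 2.21-fold lower (1.67 to 2.94).

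The hydrolases of this second list varied. Legumain, an asparaginyl protease that matures cathepsins, had 3629, 3288 and 3483 reads, 1.19-fold lower in the dark (1.14 to 1.25). That interval held the median of all isotigs. Alpha-L-fucosidase, which removes fucose, had 975, 741 and 916 reads, 1.42-fold lower (1.29 to 1.57). N-sulfoglucosamine sulfohydrolase, which acts on heparan sulfate, had 507, 356 and 536 reads, 1.54-fold lower (1.34 to 1.77). These 3 were lower in the dark by less than 2-fold, and the next 2 were higher. Palmitoyl-protein thioesterase had 495, 639 and 569 reads, 1.19-fold higher (1.06 to 1.34). N-acetylgalactosamine-6-sulfatase had 155, 218 and 142 reads, 1.30-fold higher (1.05 to 1.61).

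A further list held genes of autophagy and of mTOR signalling, the pathway that senses nutrients at the lysosome. Of 18 tested isotigs 8, or 44.4%, were at least 2-fold lower in the dark and 0 higher, beside 24.0% of all and 29.7% of named isotigs lower, with a median of -0.95. In light 0 were lower and 1 higher, with a median of 0.15. The mTOR kinase, named FKBP12-rapamycin complex-associated protein, had 62, 19 and 73 reads over 2 isotigs, 3.53-fold lower in the dark (2.08 to 6.25). Autophagy-related protein 4, which processes ATG8, had 31, 9 and 32 reads, 3.73-fold lower (1.73 to 8.90). The ATG8 homologue itself had 95, 54 and 129 reads, 1.90-fold lower (1.35 to 2.71). Autophagy-related proteins 3 and 7 and beclin 1 lay within their counting error of control, at 0.751, 0.925 and 0.66 times control in the dark.

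Light vs dark uses the same libraries again. Here 33 members had at least 2-fold more in light and 3 in the dark. These were 37.5% and 3.41% of tested members, against 26.2% and 8.09% of all tested isotigs and 32.8% and 4.8% of named ones. Counting error alone could not span 1 in 30 of the 33 and 1 of the 3. Such calls came to 16.5% and 3.59% of all isotigs and 24.8% and 2.25% of named ones. With size factors 22 members were higher and 5 lower, against 18.5% and 14.0% of all isotigs. With library totals and at least 100 reads, 7 of 28 members were higher and 0 lower. Of isotigs of that depth, 17.1% and 3.5% of all were, and 25% and 1.91% of named ones. Of the sums over names 13 were 2-fold higher and 0 lower, beside 29.9% and 2.21% of orthologies. With size factors on summed reads 7 were 2-fold higher. By counting interval 26 sums lay wholly above and 2 wholly below, beside 45.6% and 7.12% of orthologies, again not matched in depth.

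Marker lists, matched by name, were set beside the dark values. The connective tissue list of collagens, fibrillins, lysyl oxidases and other names holding the word collagen, among them matrix metalloproteinase-13 and a collagen galactosyltransferase, summed to 22185 RPKM in control, 19817 in the dark and 24696 in light. Fibrillar collagens made up 20542, 18918 and 22854 of these sums. In the dark 9 of its 20 tested isotigs, or 45.0%, were at least 2-fold lower and 2 higher. Collagen type IV was 2.07-fold lower (1.83 to 2.33) and type XVIII 4.45-fold lower (2.11 to 10.5). Matrix metalloproteinase-13 was 2.81-fold and the collagen galactosyltransferase 4.06-fold lower. Other sums stood nearer to control in the dark. Fibrillar collagens were at 0.947 times control, type VI at 0.868, lysyl oxidase-like proteins at 0.821 and fibrillins at 0.727.

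The muscle list summed to 3193, 2449 and 3584 RPKM, with 18 of 70 tested isotigs 2-fold lower in the dark and 5 higher. These were 25.7% and 7.14%, near the 24.0% and 7.09% of all tested isotigs. The digestive list summed to 3249, 2758 and 3013 RPKM, with 13 of 40 (32.5%) lower and 2 (5.0%) higher, beside 29.7% and 4.20% of named isotigs. Of its sums 1337, 970 and 1151 came from isotigs named neurotrypsin, which is no marker of the gut, and 1339, 1323 and 1452 from trypsin. Chymotrypsin matched no isotig name, and carboxypeptidases A and meprins had at most 3 reads per library.

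The coelomocyte list, of immune cells rich in lysosomes, had 40 isotigs and summed to 9879, 11638 and 8998 RPKM, of which mannose receptors made up 9053, 11260 and 8187. In the dark 8 of its 37 tested isotigs were 2-fold lower and 3 higher, with a median log2 ratio of -0.11. These were 21.6% and 8.11%, near the 24.0% and 7.09% of all tested isotigs. The counting interval excluded 1 for 5 of the lower and 0 of the higher. Complement component 3 had 1811, 906 and 1839 reads, 2.16-fold lower in the dark (1.99 to 2.34), and the macrophage scavenger receptor had 55, 13 and 61, 4.58-fold lower (2.47 to 9.13). Mannose receptors had 15385, 18928 and 15144 reads, 1.14-fold higher (1.11 to 1.16). Lysozyme, macrophage migration inhibitory factor and integrin beta 2 matched no isotig name. The markers of this list thus differed in direction in the dark, and the part of cell make-up in the result was not tested.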

How the data were processed

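Polyadenylated RNA was sequenced from 3 libraries, 1 per condition. The labels' protocols describe neither strand marking nor molecular identifiers, so overlapping antisense transcripts cannot be told apart. The submitters' processing notes name CASAVA 1.5; no source used here names the assembler, aligner or filters. Per the file headers, the authors deposited counts of uniquely assigned reads per isotig, RPKM, isotig length, and coverage as the percent of isotig length under reads. The deposited counts summed to the header totals. An isotig missing from a library's table was taken as 0 counts. Replicates are absent, so no test between conditions was run, and reads are not independent molecules: intervals and the limit of 3 counts cover counting error only.

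Log2 ratios used the deposited RPKM plus 0.5 where the mean over libraries reached 1 RPKM; the ratios of low isotigs are understated. Intervals of folds are exact conditional binomial (Clopper-Pearson) 95% intervals, computed with scipy 1.17.1. Size factors are medians of ratios; TMM factors came from edgeR 4.0.16. Counting intervals were run on simulated independent counts. Exact intervals cover such counts by construction, so the run checks the code only, not the spread in real libraries.

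The members, role groups and lists were chosen with earlier results of these data known. Named isotigs are the 3 highest in mean RPKM of each role, those 2-fold apart with a counting interval that excludes 1, the 10 largest with at least 100 reads whose interval excludes 1 (in the dark, the median of all isotigs), and those with 0 reads in a library; others were named after their values were seen.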

Additional observations from a re-analysis of the deposited data

How the results depend on the processing

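The member median relative to all isotigs kept its sign in the alternatives run, between -0.52 and -0.38 in dark vs control, 0.04 and 0.09 in light vs control, and 0.44 and 0.58 in light vs dark. All members have a KEGG name, and named isotigs as a whole stood at -0.25, 0.06 and 0.28 on this measure. No alternative took named isotigs as the reference. With RPKM summed over orthologies, the dark vs control median was -0.67 for members and -0.53 for all orthologies. In light vs dark these were 0.73 and 0.60. Counts at the 2-fold limit moved more than the member median, and beyond fewer features or a lower limit the cause was not tested. With size factors, and also with TMM factors, 19 members were lower in the dark in place of 30, and 5 in place of 3 were lower in light vs dark. With at least 100 reads, 6 were lower and 0 higher in the dark, 1 was higher and 0 lower in light, and in light vs dark 7 were higher and 0 lower. With at least 10 reads, 1 was higher in the dark, 2 were lower in light and 0 were lower in light vs dark. As sums over names, 12 were lower and 1 higher in the dark, 2 higher and 0 lower in light, and 13 higher and 0 lower in light vs dark. At a 1.5-fold limit, 56 were lower in the dark, 8 higher and 8 lower in light, and 55 higher and 7 lower in light vs dark. Requiring the counting interval as well left 2 higher in the dark, 3 lower in light and 1 lower in light vs dark. A pseudocount of 1 RPKM gave 2 lower in light, and no filter gave 8. Leaving out isotig13012, and filtering on the compared libraries alone, were chosen after seeing the data. No paired analysis was possible because each group has 1 library. Most members have under 100 reads, which limits what counts can show, and nothing here measures the spread between animals.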
